A study of Mus musculus with 14 samples.

Results

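Mouse hepatocytes lacking Yap and held for 3 weeks in the culture that the labels call BM were compared with BM hepatocytes of no stated mutation at day 3. The comparison asks whether Yap-null cells after 3 weeks resemble an early state of BM culture, and where they differ. It uses 4 of the 14 libraries of the series, 2 labelled BM 3W Yap-/- and 2 labelled BM 3D, chosen by their labels alone. Wild-type here means BM or fresh cells with no genotype in their labels. The other wild-type groups were freshly isolated hepatocytes (FH), BM cells at day 1 (BM 1D) and BM cells at week 3 (BM 3W), with 2 libraries each. They serve to place the Yap-null cells. Freshly isolated Yap-/- hepatocytes (FH Yap-/-) and LBDXL cells at week 3 (LBDXL 3W), a culture that also carries no genotype label, only shared the model fit, apart from single values given below. All mice were of the C57BL/6 strain per the labels. The age and sex of the mice, how the Yap allele was removed and in which cells, and what BM and LBDXL stand for are not given in the sources used here. Nothing in the labels ties the 2 libraries of a group to separate animals. A p-value here therefore reflects the spread between libraries, which may be technical and is pooled over all 7 groups. Genotype and time in culture both differ between BM 3W Yap-/- and BM 3D and cannot be told apart in that comparison. BM 3W Yap-/- against BM 3W is the comparison at equal time.

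YAP is a transcriptional coactivator that enters the nucleus when cells spread, stretch or lose the phosphorylation that the Hippo kinases LATS1 and LATS2 place on it. There it binds TEAD factors at target genes such as Ctgf, Cyr61 and Ankrd1 and favours growth, cytoskeletal and matrix programs. In liver, active YAP is known to draw hepatocytes away from their differentiated state, and hepatocytes plated on stiff plastic lose the expression of their metabolic genes within days. The study's title concerns YAP activation by mechanical tension in such cultures.

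Yap1, the targeted gene, stood at 6.66 and 7.74 CPM (gene counts scaled to a common library size, with TMM correcting for library composition) in the 2 BM 3W Yap-/- libraries. It stood at 119.6 and 102 CPM in BM 3D. The log2 fold change was -3.94 ± 0.21 (SE; edgeR adjusted p = 1.56e-05), so the labels and the targeted gene did not conflict. Wwtr1, which encodes the YAP paralog TAZ, had 49.6 and 33.4 CPM against 66.3 and 53.6 CPM and was not called, at -0.53 ± 0.29 (SE; edgeR adjusted p = 0.288). Hepatocyte markers, among them Alb, Ttr, Apoa1, Hnf4a and Cps1, were read in all 4 libraries, with the values given below. Depth in the 4 libraries ran from 17704762 to 20353562 counts. The BM 3D libraries differed from each other more than the Yap-null ones. Counts of the 2 libraries of a group differed with a chi-square per degree of freedom of 179.7 in BM 3D and 68.7 in BM 3W Yap-/-. It was 5.51 in FH and 4.06 in FH Yap-/-, so the pooled spread draws in part on far tighter groups. Between the BM 3D libraries the root mean square log2 difference over 14100 genes was 0.95 (Pearson r = 0.951), and between the Yap-null libraries it was 0.646 (r = 0.976). Albumin took 3.46% and 8.15% of the counts in BM 3D, and 9.42% and 8.08% in BM 3W Yap-/-. The 4 Y-linked genes Ddx3y, Eif2s3y, Kdm5d and Uty summed to 199.7 and 180.9 CPM in BM 3W Yap-/- and to 200.5 and 189.7 CPM in BM 3D. They summed to 0.0690 and 0 CPM in FH Yap-/-, and to 0 CPM in the first LBDXL 3W library, so those libraries stood apart from the others in this respect.

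BM 3W Yap-/- cells differed from BM 3D in fewer genes than from BM 1D, BM 3W or FH, and no such comparison was run with LBDXL 3W. Of 14100 genes tested, 927 (6.57%) were called against BM 3D at an edgeR adjusted p under 0.05, 453 (3.21%) higher and 474 (3.36%) lower in BM 3W Yap-/-. Against BM 1D 3931 genes (27.9%) were called, against BM 3W 4459 (31.6%; 2117 or 15.0% higher and 2342 or 16.6% lower) and against FH 5632 (39.9%). The count against BM 3D was the lowest of the 4 comparisons in each of the 25 settings in which all were computed, the one reported here included. Since a missed threshold does not show likeness, genes were also counted whose 95% interval of the fold change lay wholly inside 2-fold. These were 4589 genes (32.5%) against BM 3D, 3455 (24.5%) against BM 3W, 3424 (24.3%) against BM 1D and 3001 (21.3%) against FH. Wild-type cells over the same interval, BM 3W against BM 3D, changed in 3447 genes (24.4%), 1906 (13.5%) higher and 1541 (10.9%) lower, and 4027 (28.6%) had an interval inside 2-fold. By that measure of likeness wild-type week 3 cells were thus not far from the 32.5% of the Yap-null cells. The comparisons share libraries, so each is given with its own values only.

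The size of the difference from day 3 depended on single libraries. Without the second BM 3W Yap-/- library 53 genes were called, 46 higher and 7 lower, all of them among the 927. Without the first Yap-null library 349 were called, without the first BM 3D library 321 and without the second 683, each group then resting on 1 library assumed to vary like the others. Without one of the FH or FH Yap-/- libraries (the fresh libraries) the count ran from 391 to 431, and without one of the LBDXL 3W libraries it was 1508 or 1517. Scaling by total counts alone moved the median log2 fold change of all genes from 0.001 to -0.286 and the calls to 326 higher and 1154 lower. It moved the calls against BM 3W to 798 higher and 5051 lower, and those of BM 3W against BM 3D to 2539 higher and 704 lower (2092 and 1069 with DESeq2 size factors). Of the 927 genes, 48 stayed called in each of 24 alternatives that tested them, and 0 changed direction in any. A fit of BM 3W Yap-/- and BM 3D alone called 721 genes, 474 of them among the 927.

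Gene by gene, the Yap-null mean log2 level lay nearest to BM 3D for 4982 of 14100 genes (35.3%), nearest to BM 3W for 3236 (23.0%), to BM 1D for 2944 (20.9%) and to FH for 2938 (20.8%). Each Yap-null library alone gave the same leading group, with 4972 genes in the first and 4445 in the second. Placed among FH, BM 1D and BM 3D alone, BM 3W Yap-/- lay nearest to BM 3D for 6806 genes (48.3%) and BM 3W for 6991 (49.6%), so this measure placed Yap-null cells no nearer to day 3 than wild-type week 3 cells. Correlation across genes of the first Yap-null library was 0.923 and 0.919 with the BM 3D libraries, 0.881 and 0.878 with BM 1D, 0.849 and 0.825 with BM 3W and 0.830 and 0.828 with FH. These are descriptions over genes, which are not independent replicates and share each library's depth and composition. With the LBDXL 3W libraries, a different culture at the same time, r was 0.940 and 0.909. The second Yap-null library had r of 0.906 and 0.910 with BM 3D and 0.927 and 0.914 with LBDXL 3W. The Yap-null libraries thus lay as near to LBDXL 3W as to BM 3D by this measure.

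**Figure D1:**
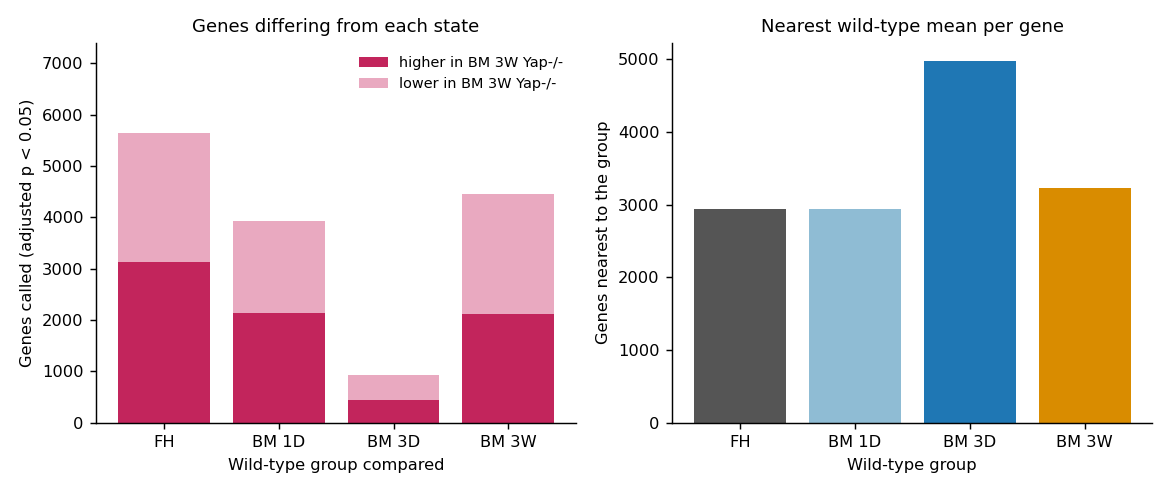
Left, genes called at an edgeR adjusted p under 0.05 between BM 3W Yap-/- and each wild-type group (x axis), with those higher and lower in BM 3W Yap-/- stacked; right, number of genes whose BM 3W Yap-/- mean lay nearest to each wild-type group's mean. BM 3D has the fewest called genes (927) and the most nearest genes (4982).

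Relative to both BM states, the 927 genes fell into classes. In 454 the Yap-null level was called on the same side of BM 3D and of BM 3W, 213 above both and 241 below both. Another 132 lay between the 2 wild-type states, and 120 of these were above BM 3D and below BM 3W. The remaining 341 differed from BM 3D and were not called against BM 3W. By contrast 3873 genes were called against BM 3W and not against BM 3D, 1892 of them higher and 1981 lower in the Yap-null cells, and 9300 were called against neither.

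**Figure D2:**
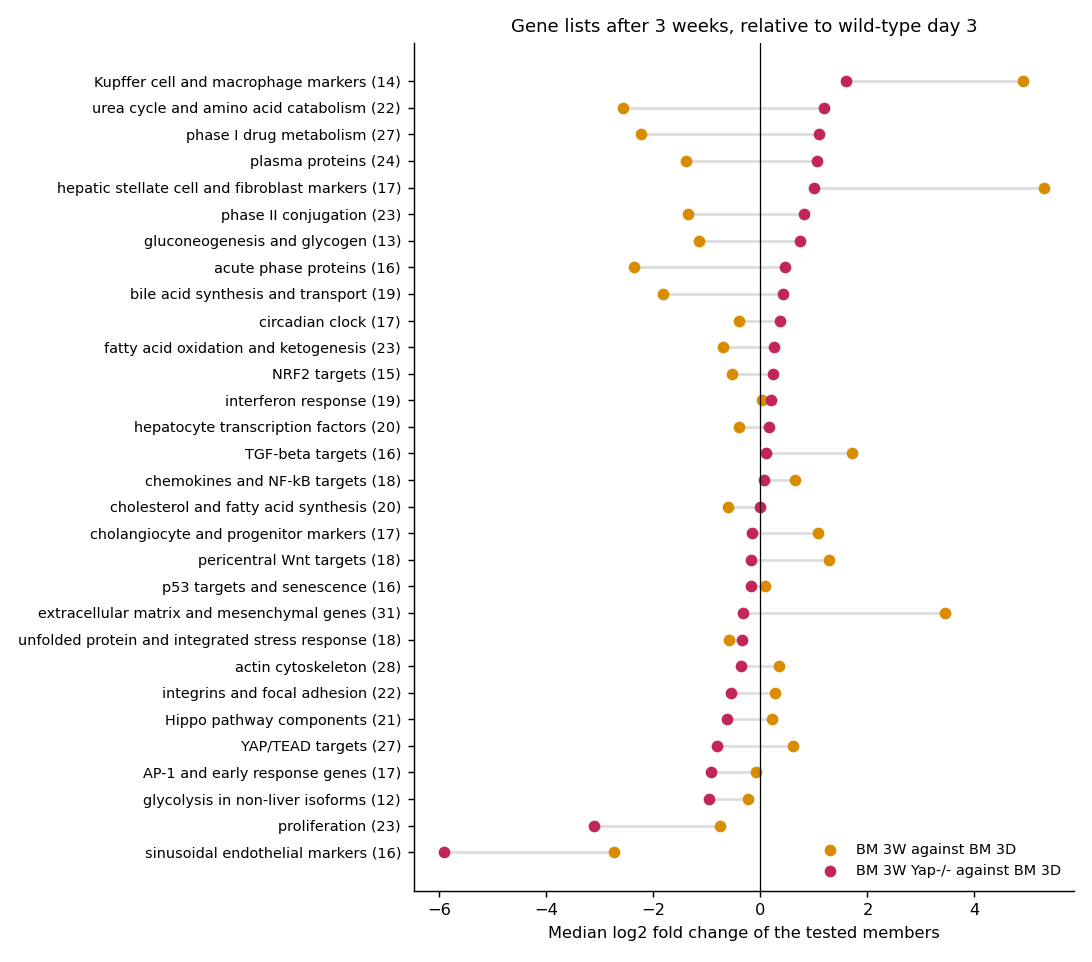
Median log2 fold change of each gene list against BM 3D (x axis) in BM 3W Yap-/- and in BM 3W, with the number of tested members in brackets. Matrix and stellate lists lie far to the right in BM 3W (medians 3.45 and 5.31) and near the zero line or 1.00 in BM 3W Yap-/-, and the plasma protein, urea cycle and drug metabolism lists lie left of zero in BM 3W and right of it in BM 3W Yap-/-.

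The DNA upstream of 5 genes is shown first, because the TEAD core motif is the base sequence through which YAP is known to reach its targets. Cyr61, Ankrd1 and Amotl2 belong to the list of YAP/TEAD targets used below, and Acta2 and Ccnb1 do not. Each window holds the 250 bases before the RefSeq start site in GRCm38.p6, read 5′ to 3′ in the sense of the gene. Capitals mark GGAATG or its reverse complement CATTCC in the first 4 and CCAAT in the last, the cyclin gene Ccnb1, where this element, bound by NF-Y, is typical of mitotic promoters. Cyr61 is listed there as Ccn1, and Ctgf had no entry. Amotl2, Acta2 and Ccnb1 were picked after their values were seen. Cyr61 lies at chr3:145649986-145650235 on the minus strand, Ankrd1 at chr19:36119845-36120094 (minus), Amotl2 at chr9:102717554-102717803 (plus), Acta2 at chr19:34255374-34255623 (minus) and Ccnb1 at chr13:100786487-100786736 (minus).
Cyr61: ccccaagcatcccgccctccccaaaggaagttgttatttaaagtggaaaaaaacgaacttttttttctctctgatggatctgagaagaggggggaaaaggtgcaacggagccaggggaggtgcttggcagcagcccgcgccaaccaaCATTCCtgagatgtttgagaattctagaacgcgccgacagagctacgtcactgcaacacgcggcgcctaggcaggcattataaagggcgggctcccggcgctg
Ankrd1: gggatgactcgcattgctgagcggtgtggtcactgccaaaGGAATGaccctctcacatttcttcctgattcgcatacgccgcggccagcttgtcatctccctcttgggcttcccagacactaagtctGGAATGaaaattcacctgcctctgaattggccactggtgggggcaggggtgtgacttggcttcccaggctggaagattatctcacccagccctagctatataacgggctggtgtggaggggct
Amotl2: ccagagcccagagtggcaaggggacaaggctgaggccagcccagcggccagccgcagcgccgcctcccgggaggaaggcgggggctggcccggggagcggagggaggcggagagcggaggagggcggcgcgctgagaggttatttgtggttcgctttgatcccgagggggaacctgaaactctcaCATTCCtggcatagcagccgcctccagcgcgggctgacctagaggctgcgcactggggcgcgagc
Acta2: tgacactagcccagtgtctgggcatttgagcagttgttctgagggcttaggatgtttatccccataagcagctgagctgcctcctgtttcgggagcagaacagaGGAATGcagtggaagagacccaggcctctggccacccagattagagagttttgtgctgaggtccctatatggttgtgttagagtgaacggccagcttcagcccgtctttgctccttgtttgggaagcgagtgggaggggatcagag
Ccnb1: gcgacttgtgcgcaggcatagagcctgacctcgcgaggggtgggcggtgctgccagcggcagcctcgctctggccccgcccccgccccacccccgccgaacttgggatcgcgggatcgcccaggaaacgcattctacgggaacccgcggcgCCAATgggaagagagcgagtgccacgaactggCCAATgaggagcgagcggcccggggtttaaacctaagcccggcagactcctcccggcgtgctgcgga

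The core was found on either strand 1 time upstream of Cyr61, Amotl2 and Acta2 and 2 times upstream of Ankrd1. Over 32851 RefSeq promoter windows of 250 bases, 12.6% held it. Counted by gene, 7 of the 21 YAP/TEAD targets with a window held it (33.3%), against 14.4% of 27025 genes. CCAAT or its reverse complement ATTGG occurred 2 times upstream of Ccnb1, in 15 of 19 proliferation genes with a window (78.9%) and in 37.5% of genes. A match is a description of these letters and no evidence of binding.

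YAP/TEAD targets moved in both directions against day 3. Of 27 tested members 2 rose and 6 fell against BM 3D (median log2 fold change -0.81, all genes 0.001), where 3.21% of all genes rose and 3.36% fell. Against BM 3W 1 rose and 16 fell (median -1.75), where 15.0% of all genes rose and 16.6% fell. The 3 classical targets were not called against day 3. Ctgf, a secreted matricellular protein, had 133 and 151 CPM against 351 and 535 CPM in BM 3D and 719 and 902 CPM in BM 3W. The Yap-null libraries lay below both BM 3D libraries without overlap, at -1.64 ± 0.58 (SE; edgeR adjusted p = 0.112), and the fall against BM 3W was called, at -2.51 ± 0.60 (SE; edgeR adjusted p = 0.0104). Cyr61, of the same protein family, had 68.3 and 66.9 CPM against 316 and 127 CPM, at -1.71 (edgeR adjusted p = 0.235). Ankrd1, a nuclear ankyrin repeat protein, had 48.1 and 40.1 CPM, inside the range of the BM 3D libraries (105 and 33.7 CPM).

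The 6 that fell against day 3 were F3, Ajuba, Amotl2, Lats2, Fjx1 and Birc5. F3, the tissue factor that starts coagulation, had 6.32 and 5.53 CPM against 20.5 and 52.2 CPM in BM 3D, at -2.61 ± 0.50 (SE; edgeR adjusted p = 0.0174). Amotl2, a junctional angiomotin that restrains YAP, had 65.0 and 64.0 CPM against 116 and 110.3 CPM, at -0.81 ± 0.20 (SE; edgeR adjusted p = 0.0368). Birc5 encodes survivin and is also a cell cycle gene. Lats2, itself a Hippo kinase, had 24.3 and 19.1 CPM against 48.6 and 34.5 CPM, at -0.94 (edgeR adjusted p = 0.0408). Ajuba, a LIM protein that inhibits LATS, had 27.0 and 44.3 CPM against 87.4 and 95.3 CPM, at -1.36 (edgeR adjusted p = 0.0367). The 2 risen members were Fstl1 and Axl. Mesenchymal cells are also known to express both, and the part of such cells in any of the target changes was not tested. Fstl1, a secreted glycoprotein, had 72.8 and 67.7 CPM against 8.38 and 10.7 CPM in BM 3D and 446 and 466 CPM in BM 3W, at 2.88 ± 0.42 (SE; edgeR adjusted p = 0.00691) against BM 3D. Axl, a receptor tyrosine kinase, had 32.5 and 30.8 CPM against 10.4 and 12.9 CPM, at 1.45 (edgeR adjusted p = 0.0457). In the Hippo pathway list, 1 higher and 4 lower of 21 were called against day 3 (median -0.63), the rise being Vgll3, a TEAD cofactor. The falls were Mob1b, the targeted gene Yap1, and Lats2 and Amotl2, which are already counted among the 6 above. Without the first or the second Yap-null library 0 and 0 YAP/TEAD targets were called lower and 1 was called higher each time. Without either BM 3D library 2 were called lower, without either BM 3W library 3, and without one of the fresh libraries 1 or 2.

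**Figure D3:**
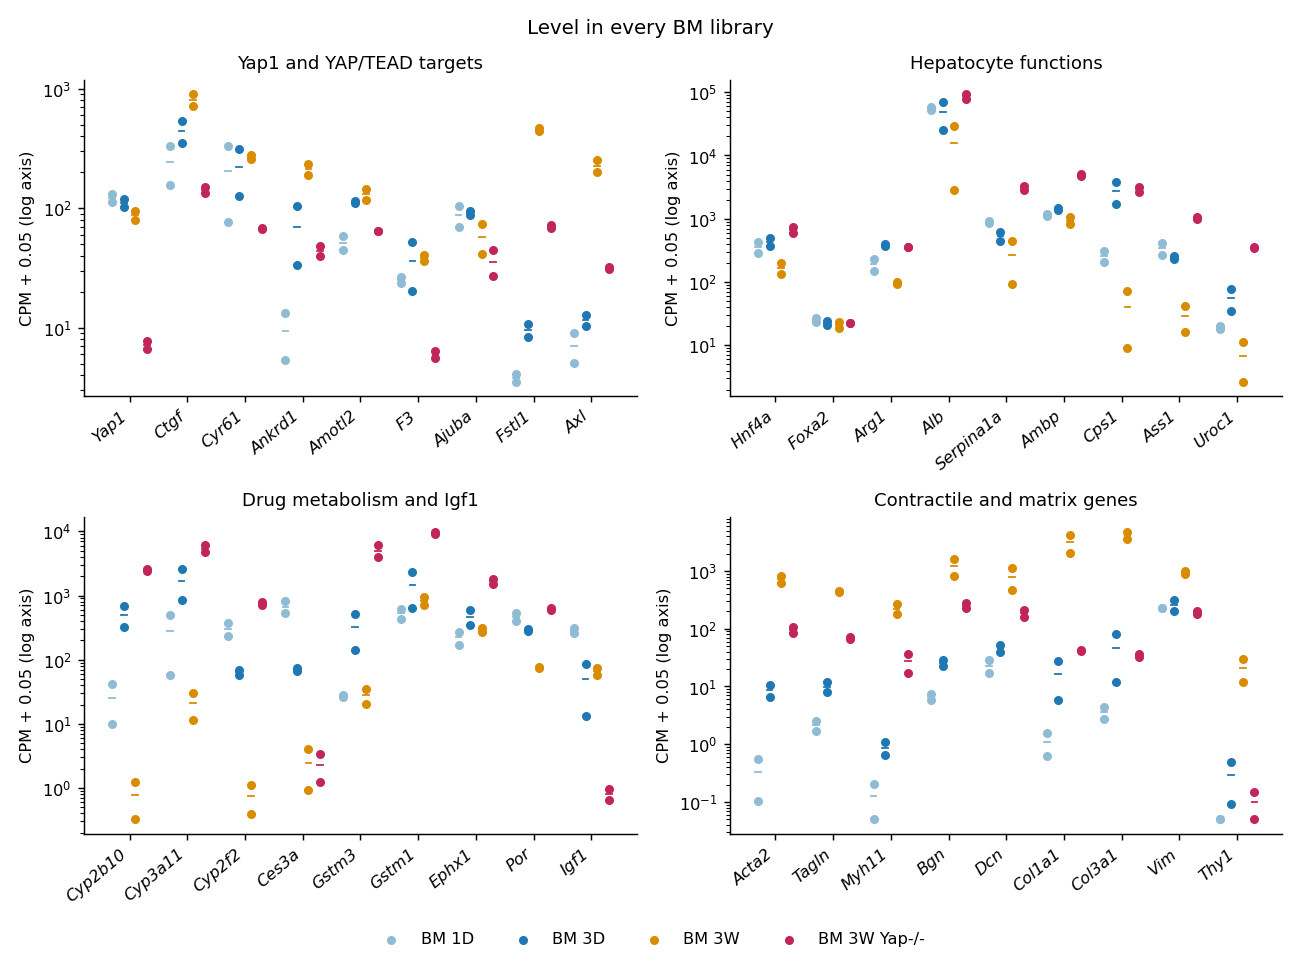
TMM-scaled CPM plus 0.05 on a log axis for genes of 4 functions (x axis), 1 point per library and a short bar at the mean of the 2 libraries, in BM 1D, BM 3D, BM 3W and BM 3W Yap-/-. The BM 3W Yap-/- points sit beside BM 3D for Foxa2, Arg1, Cps1, Col3a1 and Vim, below every other group for Yap1, F3 and Igf1, and between BM 3D and BM 3W for Acta2, Tagln, Bgn and Dcn.

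Hepatocyte identity factors were not called different from day 3. Of 20 hepatocyte transcription factors 0 were called against BM 3D in either direction with edgeR (unadjusted p under 0.05 in 4), 4 with DESeq2, and 6 had an interval inside 2-fold, a share near the 32.5% of all genes. Their median log2 fold change was 0.16, or -0.09 when scaled by total counts alone, and from -0.02 to 0.54 without 1 of the 4 libraries. Hnf4a, the nuclear receptor that maintains hepatocyte identity, had 741 and 589 CPM against 366 and 500.3 CPM in BM 3D, at 0.62 ± 0.31 (SE; edgeR adjusted p = 0.247). The pioneer factor Foxa2 had 22.8 and 22.7 CPM against 24.5 and 21.1 CPM, with a log2 fold change of -0.00 (95% interval -0.43 to 0.42). Against BM 3W 9 of the 20 were higher and 1 lower, Hnf4a at 1.98 ± 0.32 (SE; edgeR adjusted p = 0.00164). In that comparison 15.0% of all genes were higher and 16.6% lower.

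Plasma protein genes leaned higher than at day 3, and few passed the test. The share of members called higher in a hepatic list is to be read against that of all genes. That share of all genes was 3.21% against BM 3D and 15.0% against BM 3W. Of 24 tested members 2 rose and 0 fell (median 1.05), against 20 higher and 0 lower when compared with BM 3W (median 2.61). An interval inside 2-fold of BM 3D was found for 0 of the 24, against 32.5% of all genes. Ambp, the precursor of alpha-1-microglobulin and bikunin, had 4673 and 5173 CPM against 1371 and 1474 CPM in BM 3D, at 1.79 ± 0.37 (SE; edgeR adjusted p = 0.0234). Serpina1a, an alpha-1-antitrypsin, had 3293 and 2871 CPM against 440.4 and 613 CPM, at 2.55 ± 0.60 (SE; edgeR adjusted p = 0.0345). Both were above the day 3 libraries without overlap. Alb, albumin, had 93174 and 78176 CPM against 25438 and 71033 CPM in BM 3D, and its difference was not called, at 0.83 ± 1.07 (SE; edgeR adjusted p = 0.669). Apoa1, the main protein of HDL, had 11529 and 11259 CPM against 5649 and 4689 CPM, at 1.14 (edgeR adjusted p = 0.444). Ttr, transthyretin, had 2281 and 2719 CPM against 1059 and 887 CPM, at 1.36 (edgeR adjusted p = 0.187). Leaving out either BM 3W library raised the list's count to 8 higher. Leaving out either BM 3D or either Yap-null library lowered it to 0, and leaving out one of the fresh libraries gave 0 or 1. The acute phase list had 1 higher and 0 lower of 16 (median 0.45, and 0.90 and 0.76 without the first and the second BM 3D library), the 1 being Il1rn, the interleukin 1 receptor antagonist, at 25.4 and 22.2 CPM against 2.15 and 3.20 CPM, 3.15 ± 0.33 (SE; edgeR adjusted p = 0.00125).

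Few urea cycle and amino acid enzymes were called against day 3, though most were above week 3. Of 22 members 3 rose and 0 fell against BM 3D (median 1.18), and 20 rose and 1 fell against BM 3W (median 3.99). For BM 3W the shares of all genes were 15.0% higher and 16.6% lower. Cps1, which fixes ammonia in the urea cycle, had 3135 and 2691 CPM against 1687 and 3783 CPM in BM 3D, inside the day 3 range, and 72.5 and 9.07 CPM in BM 3W. Its log2 fold change was 0.09 ± 0.77 (SE; edgeR adjusted p = 0.961) against BM 3D and 6.16 ± 0.96 (SE; edgeR adjusted p = 0.00133) against BM 3W. Arg1, the arginase that closes the cycle, had 357 and 355 CPM against 402 and 370.3 CPM, with -0.12 (95% interval -0.77 to 0.54), inside 2-fold. It was the only member of the 22 inside 2-fold of BM 3D, against 32.5% of all genes, so the list was not shown to match day 3. Ass1, which makes argininosuccinate, had 1068 and 979 CPM against 233 and 257 CPM and rose, at 2.06 ± 0.52 (SE; edgeR adjusted p = 0.0431). Uroc1, a histidine catabolic enzyme, had 353 and 340.2 CPM against 35.1 and 77.9 CPM, at 2.62 ± 0.61 (SE; edgeR adjusted p = 0.0324). Haao, of the tryptophan pathway, had 60.1 and 90.3 CPM against 9.07 and 3.99 CPM, at 3.52 (edgeR adjusted p = 0.0330). Ass1, Uroc1 and Haao were above both day 3 libraries, Cps1 lay between them and Arg1 below them. Without either Yap-null library or the first BM 3D library 0 were called, and 1 was without the second BM 3D library. Without any 1 of the fresh libraries 0 were called.

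Fatty acid and sugar metabolism showed single calls, close to the background share. In fatty acid oxidation and ketogenesis 9 of 23 members had an interval inside 2-fold of BM 3D, against 32.5% of all genes, and 1 rose, Acsl1, an acyl-CoA synthetase, at 1.83 ± 0.46 (SE; edgeR adjusted p = 0.0405). Acadl, a long-chain acyl-CoA dehydrogenase, had 106 and 84.8 CPM against 103 and 96.6 CPM, at -0.07 (95% interval -0.62 to 0.49). Decr1, needed to oxidise unsaturated fatty acids, had 41.5 and 49.9 CPM against 41.7 and 56.7 CPM, at -0.11 (95% interval -0.62 to 0.41). In cholesterol and fatty acid synthesis 1 higher and 1 lower of 20 were called, Fasn (fatty acid synthase) higher at 1.69 (edgeR adjusted p = 0.0266) and Idi1 (isoprenoid synthesis) lower at -1.27 (edgeR adjusted p = 0.0471). Acly, which supplies acetyl-CoA, had 335 and 331 CPM against 351 and 247 CPM, at 0.16 (95% interval -0.43 to 0.75). The gluconeogenesis and glycogen list had 1 higher and 0 lower of 13, Khk, ketohexokinase, being the rise at 1.79 (edgeR adjusted p = 0.0243). Pck1, the rate-setting gluconeogenic enzyme, had 7.04 and 7.44 CPM, below 25.8 and 27.5 CPM in BM 3D, and was not called, at -1.88 (edgeR adjusted p = 0.163). In the glycolysis isoforms not typical of liver 0 higher and 1 lower of 12 were called, Hk2, a hexokinase, at 2.77 and 3.37 CPM against 14.9 and 19.8 CPM, -2.50 ± 0.53 (SE; edgeR adjusted p = 0.0253). In bile acid synthesis and transport 1 higher and 0 lower of 19 were called (median 0.43, and 0.27 without either Yap-null library). The rise was Akr1d1, the steroid 5-beta-reductase, at 96.8 and 83.8 CPM against 13.3 and 9.65 CPM, 2.98 ± 0.55 (SE; edgeR adjusted p = 0.0165). Inside 2-fold of BM 3D were 1 of 19 bile acid genes, 0 of 13 gluconeogenesis and glycogen genes and 0 of 12 glycolysis isoforms. In cholesterol and fatty acid synthesis 4 of 20 were. Without the second Yap-null library 0 genes of these 5 lists were called.

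Drug-metabolising genes had more calls against day 3 than the other hepatocyte lists given here. In phase I 4 higher and 1 lower of 27 were called (median 1.09, and 0.55 without the first BM 3D library), and in phase II 4 higher and 2 lower of 23 (median 0.82). Against BM 3W the counts were 16 higher and 2 lower of 27 and 19 higher and 0 lower of 23. The shares over all genes there were 15.0% higher and 16.6% lower. Inside 2-fold of BM 3D were 0 of 27 phase I and 1 of 23 phase II genes, against 32.5% of all genes. Many of these genes have close paralogs among which reads can be split, so their values are uncertain. Cyp2f2, a periportal cytochrome P450, had 789 and 723 CPM against 69.4 and 58.6 CPM in BM 3D and 0.343 and 1.05 CPM in BM 3W, at 3.56 ± 0.71 (SE; edgeR adjusted p = 0.0195) against BM 3D. Gstm3, a glutathione transferase, had 4004 and 6069.9 CPM against 515 and 142 CPM, at 3.94 ± 0.68 (SE; edgeR adjusted p = 0.0130). Por, the electron donor of microsomal P450 enzymes, had 650.1 and 587 CPM against 280.4 and 301 CPM, at 1.09 ± 0.26 (SE; edgeR adjusted p = 0.0356). Cyp2b10, the marker gene of the receptor CAR, had 2387 and 2556 CPM against 679 and 320.1 CPM in BM 3D and 0.274 and 1.20 CPM in BM 3W. It lay above both day 3 libraries and missed the threshold against them, at 2.31 ± 0.70 (SE; edgeR adjusted p = 0.0727). Cyp3a11, the major Cyp3a of mouse liver, had 6037 and 4783 CPM against 2557 and 839 CPM, at 1.67 (edgeR adjusted p = 0.280). Ces3a, a carboxylesterase, went the other way, at 1.17 and 3.32 CPM against 73.8 and 67.5 CPM, -4.98 ± 0.80 (SE; edgeR adjusted p = 0.0101). Ugt2b1, a glucuronosyltransferase, had 0.777 and 1.61 CPM against 16.3 and 11.7 CPM, at -3.55 (edgeR adjusted p = 0.0303). In each of the 5 called genes named here the 2 groups did not overlap. Cyp2e1, a pericentral P450, was low in both, at 1.70 and 1.81 CPM and 4.50 and 8.96 CPM, beside a BM 1D mean of 906 CPM. Among 18 pericentral Wnt targets 3 rose and 0 fell, the rises being Notum (a Wnt deacylase) at 3.64 (edgeR adjusted p = 0.0130), Slc13a3 at 2.33 (edgeR adjusted p = 0.0174) and Nkd1 at 1.77 (edgeR adjusted p = 0.0466). Without the second Yap-null library 0 phase I, phase II or pericentral genes were called, and without the first 0, 1 and 1. Without the first BM 3D library 3, 4 and 0 were, without the second 3, 2 and 2, and without one of the fresh libraries 2, 1 and 2.

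Genes known for sex-biased expression in mouse liver included some of the largest differences from day 3. The set was assembled after its values were seen, so it carries no count or test as a group. Sult2a1, a hydroxysteroid sulfotransferase, had 183 and 300.0 CPM in BM 3W Yap-/- against 0.0810 and 0.197 CPM in BM 3D, at 10.75 ± 1.88 (SE; edgeR adjusted p = 0.0159). Its paralog Sult2a2 had 102 and 136 CPM against 0.0810 and 0.492 CPM, at 8.74 ± 1.52 (SE; edgeR adjusted p = 0.0159). Cyp2b9, a female-predominant P450, had 135 and 92.3 CPM against 0.284 and 0 CPM, at 9.48 ± 1.56 (SE; edgeR adjusted p = 0.0112). The 2 groups did not overlap in any of the 3. All 3 were also called higher than in BM 3W, at 11.20, 9.81 and 6.18 on the log2 scale. Cyp2a4 had 666 and 706 CPM and 33.9 and 0.345 CPM and was not called, at 5.32 (edgeR adjusted p = 0.0573). In the other direction, Mup1 had 0.534 and 0.905 CPM against 45.9 and 56.2 CPM, at -6.14 ± 0.83 (SE; edgeR adjusted p = 0.00480), and Mup3 had 64.2 and 55.7 CPM against 1813 and 2432 CPM, at -5.15 ± 0.69 (SE; edgeR adjusted p = 0.00472). Mup genes encode the major urinary proteins, which males secrete in larger amounts, and their near-identical copies make single-gene values uncertain. In BM 3W, Mup1 had 0 and 0.150 CPM and Mup3 93.0 and 42.9 CPM, and neither was called between BM 3W Yap-/- and BM 3W. Igf1, the growth hormone dependent growth factor made by hepatocytes, had 0.923 and 0.603 CPM against 13.2 and 86.5 CPM in BM 3D and 58.6 and 74.7 CPM in BM 3W. It was below both, at -6.01 ± 0.95 (SE; edgeR adjusted p = 0.00954) and -6.43 ± 0.97 (SE; edgeR adjusted p = 0.00113). The sex of the animals is not given in the labels, and its part in these differences was not tested. Y-linked genes were read in both BM 3W Yap-/- libraries as given above. In the LBDXL 3W libraries, of which the first had no Y-linked counts, Sult2a1 had 187 and 2.54 CPM and Sult2a2 105 and 4.35 CPM.

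**Figure D4:**
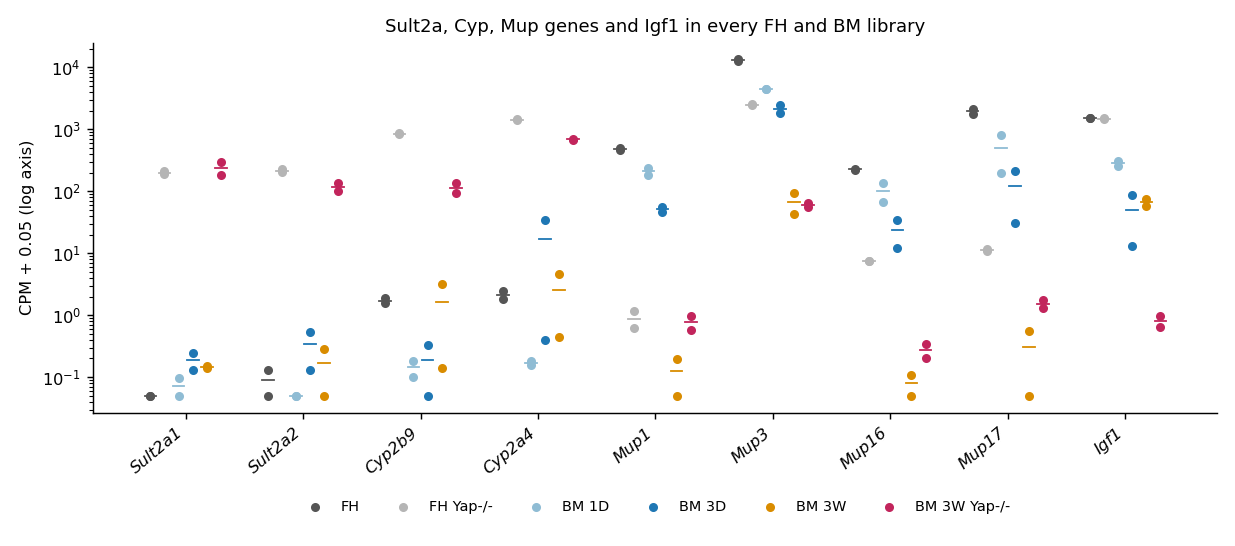
TMM-scaled CPM plus 0.05 on a log axis in each FH and BM library, 1 point per library with a short bar at the mean of the 2 libraries, for genes known for sex-biased expression in mouse liver and Igf1. Sult2a1, Sult2a2 and Cyp2b9 are above 90 CPM in BM 3W Yap-/- and FH Yap-/- and below 4 CPM in every other group, and Mup1, Mup3, Mup16 and Mup17 are lower in BM 3W Yap-/- than in BM 3D.

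Matrix genes, which rose widely in wild-type cells, were called against day 3 about as often as all genes (6.57%). They were not shown to match day 3, since 1 of 31 had an interval inside 2-fold of BM 3D, against 32.5% of all genes. Of 31 matrix and mesenchymal genes 22 were higher in BM 3W than in BM 3D (median 3.45), where 13.5% of all genes were. In BM 3W Yap-/- 2 were higher and 0 lower than in BM 3D (median -0.32). The median was -0.67 and 0.58 without the first and the second BM 3D library. Against BM 3W 25 of the 31 were lower (median -3.87), where 16.6% of all genes were lower. Col1a1, the fibrillar collagen chain of scar, had 40.9 and 43.0 CPM against 5.67 and 27.3 CPM in BM 3D and 2092 and 4164 CPM in BM 3W. It was not called against day 3, at 1.35 ± 0.62 (SE; edgeR adjusted p = 0.209), and fell against BM 3W, at -6.22 ± 0.76 (SE; edgeR adjusted p = 4.49e-04). Col3a1 had 32.8 and 36.3 CPM, inside the BM 3D range of 12.1 and 81.2 CPM, and 3580.2 and 4814 CPM in BM 3W. Vim, vimentin, had 180.4 and 205 CPM against 199.8 and 318 CPM, at -0.43 (edgeR adjusted p = 0.658). The 2 that rose against day 3 were Bgn and Col8a1. Bgn, the small proteoglycan biglycan, had 277 and 227 CPM against 22.6 and 28.9 CPM in BM 3D and 1607 and 828 CPM in BM 3W, at 3.29 ± 0.47 (SE; edgeR adjusted p = 0.00661) against day 3. Col8a1, a short-chain collagen, had 8.21 and 6.74 CPM against 0.446 and 0.0985 CPM, at 4.69 ± 0.82 (SE; edgeR adjusted p = 0.0142). Without the second BM 3D library 5 matrix genes were called higher, and without the second Yap-null library 1 was. In a fit of the 2 groups alone 2 were called higher and 6 lower, and with either or both LBDXL 3W libraries left out 4 higher and 5 lower.

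The cytoskeletal genes called against day 3 went both ways. Of 28 actin cytoskeleton genes 2 rose and 3 fell against BM 3D (median -0.36), with 7 inside 2-fold, where 3.21% of all genes rose, 3.36% fell and 32.5% were inside 2-fold. The rises were the smooth muscle genes Acta2 and Tagln. Acta2, smooth muscle actin, had 105 and 85.6 CPM against 6.44 and 10.5 CPM in BM 3D and 816 and 626 CPM in BM 3W. It was above day 3, at 3.49 ± 0.51 (SE; edgeR adjusted p = 0.00695), and below BM 3W, at -2.92 ± 0.50 (SE; edgeR adjusted p = 0.00210). Tagln, transgelin, had 67.1 and 71.9 CPM against 8.02 and 11.8 CPM, at 2.81 ± 0.26 (SE; edgeR adjusted p = 7.71e-04). Cnn3, an actin-binding calponin, fell from 339 and 369 CPM to 193 and 190.0 CPM, at -0.89 ± 0.19 (SE; edgeR adjusted p = 0.0263). Tln1, the talin that links integrins to actin, had 191 and 166 CPM against 307 and 378 CPM, at -0.94 (edgeR adjusted p = 0.0263). Actn1, an alpha-actinin of stress fibres, had 84.2 and 74.8 CPM against 152 and 185 CPM, at -1.08 (edgeR adjusted p = 0.0398). The Yap-null libraries lay above both day 3 libraries for Acta2 and Tagln and below both for Cnn3, Tln1 and Actn1. Pfn1, profilin, was inside 2-fold at 0.05 (95% interval -0.48 to 0.57). Among 22 integrin and focal adhesion genes 0 rose and 3 fell (median -0.56), among them Lpp, a LIM protein of focal adhesions, at -1.41 (edgeR adjusted p = 0.0201). Of 16 TGF-beta targets 3 rose and 1 fell, with Ltbp2, a latent TGF-beta binding protein, at 5.03 (edgeR adjusted p = 0.00909) and Skil, a SMAD repressor, at -1.83 (edgeR adjusted p = 0.0369). The Acta2 and Tagln calls held in each of the 24 alternatives, while 0 cytoskeletal genes were called lower without either Yap-null library, the second BM 3D library or any 1 of the fresh libraries. In LBDXL 3W, Acta2 had 15.2 and 9.06 CPM.

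Markers of stellate cells and fibroblasts, the mesenchymal cells that hepatocyte preparations can hold, summed to levels between day 3 and week 3. Their list includes Acta2, Col1a1 and Col3a1, already given above, so it is not separate from the matrix and contractile genes. Summed over the 18 markers the level was 558 and 462 CPM in BM 3W Yap-/-, 104 and 319.9 CPM in BM 3D and 9781 and 11408 CPM in BM 3W. Of the 17 tested 5 were higher than in BM 3D (Acta2, Des, Dcn, Lum and Pdpn) and 0 lower, with a median of 1.00, or 0.62 and 2.26 without the first and the second BM 3D library. Against BM 3W 16 of 17 were lower. Of all genes, 3.21% were higher and 3.36% lower than in BM 3D, and 16.6% were lower than in BM 3W. Des, the intermediate filament desmin, had 15.1 and 18.8 CPM against 1.05 and 2.41 CPM, at 3.30 ± 0.60 (SE; edgeR adjusted p = 0.0159). Dcn, decorin, had 210.0 and 163 CPM against 39.0 and 52.4 CPM, at 2.03 (edgeR adjusted p = 0.0292). Lum, lumican, had 23.5 and 18.8 CPM against 2.63 and 3.64 CPM, at 2.75 ± 0.48 (SE; edgeR adjusted p = 0.0134). Des, Dcn and Lum were above both day 3 libraries. Lrat, which defines quiescent stellate cells by storing retinol, had 3.50 and 2.41 CPM against 3.08 and 15.5 CPM and was not called, and Thy1 had 0 and 0.101 CPM. Fewer cells of a type and less RNA per cell cannot be told apart in bulk samples, and the part of these cells in the matrix and contractile results was not tested. Without the first BM 3D library 1 marker was called, without the first or second Yap-null library 3 and 1.

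Most of the cell cycle genes fell against day 3. Of 23 proliferation genes 0 rose and 14 fell (median -3.11), where 3.36% of all genes fell. Against BM 3W 0 rose and 11 fell (median -2.03), where 16.6% of all genes fell. Mki67, a marker of cycling cells, had 8.60 and 4.68 CPM against 188 and 23.4 CPM in BM 3D, at -3.99 ± 1.02 (SE; edgeR adjusted p = 0.0435). Ccnb1, the mitotic cyclin whose upstream sequence is shown above, had 0.632 and 0.905 CPM against 27.7 and 4.68 CPM, at -4.39 ± 0.81 (SE; edgeR adjusted p = 0.0163). Ccnb2 had 0.389 and 0.553 CPM against 15.5 and 6.06 CPM, at -4.50 ± 0.66 (SE; edgeR adjusted p = 0.00674). Rrm2, a subunit of ribonucleotide reductase, had 3.98 and 4.48 CPM against 111 and 26.3 CPM, at -4.02 ± 0.70 (SE; edgeR adjusted p = 0.0134). In each of these the first BM 3D library was far higher than the second, and both were above the Yap-null libraries. The 23 genes summed to 1155 and 264 CPM in the BM 3D libraries, 159.7 and 153 CPM in BM 3W Yap-/- and 304 and 273 CPM in BM 1D. Without the first BM 3D library 2 members were called lower and the median was -1.21, and without the second 19 and -3.85. Without the first Yap-null library 2 were, without the second 0, without either BM 3W library 8 or 9, and without one of the fresh libraries 5 or 6. By nearest state 18 of the 23 lay nearest to FH or BM 1D and 3 nearest to BM 3D. Cdkn1a, the p21 inhibitor of the cell cycle, had 171 and 165 CPM against 111 and 183 CPM, at 0.19 (edgeR adjusted p = 0.793).

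Endothelial genes made up most of the largest falls. Among 16 sinusoidal endothelial markers 1 rose and 9 fell against BM 3D (median -5.92), where 3.21% of all genes rose and 3.36% fell. Cdh5, the cadherin of endothelial junctions, had 0.0486 and 0 CPM against 39.2 and 52.9 CPM in BM 3D, with a ratio of 1836 (95% counting interval 329 to 72553) of BM 3D over BM 3W Yap-/-. Pecam1 had 0.0972 and 0.402 CPM against 28.4 and 40.2 CPM, at -7.07 ± 1.44 (SE; edgeR adjusted p = 0.0215). Kdr, the VEGF receptor, had 0.0972 and 0 CPM against 10.3 and 19.6 CPM, with a ratio of 293 (95% counting interval 80.8 to 2425). Adgrf5, an adhesion receptor of vessels, was at 0 counts in both Yap-null libraries and at 47.0 and 39.4 CPM in BM 3D, at least 291-fold higher at day 3 with 3 counts in each Yap-null library as the floor. Pecam1, Cdh5 and Lyve1 were also low in BM 3W, at 0.240 and 0.928 CPM, 1.71 and 1.59 CPM and 0.652 and 0.479 CPM. Of the 16 markers 0 were called higher and 5 lower than in BM 3W (median -3.37), Kdr and Ptprb among the 5. Of all genes, 15.0% were higher and 16.6% lower than in BM 3W. BM 3W itself had 1 marker higher and 6 lower than BM 3D (median -2.74), where 13.5% of all genes were higher and 10.9% lower. The 1 member that rose in BM 3W Yap-/- against BM 3D was Ehd3. It had 31.5 and 26.7 CPM against 2.79 and 5.02 CPM, at 2.90 (edgeR adjusted p = 0.0477). Stab1, Eng and Flt4 stayed detectable in the Yap-null libraries, at 22.4 and 34.0 CPM, 24.9 and 33.0 CPM and 77.4 and 53 CPM. They were not called against day 3. Which cells the RNA of any list member came from was not tested. The summed list had 159.9 and 149 CPM in BM 3W Yap-/-, 289 and 399 CPM in BM 3D and 426 and 401 CPM in BM 3W. Stab1, Eng, Flt4 and Ehd3 held most of the Yap-null sum. Clec4g, a defining sinusoidal marker, was at 0 in both Yap-null libraries. Of the 12 largest falls by the naming rule, 9 (Adgrf5, Robo4, Cdh5, Apln, Esm1, Lyve1, Kdr, Pecam1 and Adgrl4) are genes known from endothelium and Gimap4 is shared with lymphocytes. Without either Yap-null library 0 list members were called, and without either BM 3D library 7 fell.

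Several macrophage genes rose against day 3, and more were below week 3. Of 14 Kupffer cell and macrophage markers 6 rose and 0 fell against BM 3D (median 1.59), and against BM 3W 1 was higher and 10 lower (median -3.15). For the lists here, 3.21% of all genes rose and 3.36% fell against BM 3D. Against BM 3W 15.0% of all genes were higher and 16.6% lower. Lyz2, lysozyme of myeloid cells, had 145 and 197 CPM against 25.9 and 3.79 CPM in BM 3D and 1746 and 2679 CPM in BM 3W, at 3.52 ± 0.74 (SE; edgeR adjusted p = 0.0242) against day 3. C1qa, a complement chain made by macrophages, had 15.0 and 19.3 CPM against 4.94 and 6.35 CPM, at 1.60 ± 0.32 (SE; edgeR adjusted p = 0.0199). Csf1r, the receptor for their growth factor, had 13.2 and 16.1 CPM against 4.46 and 7.29 CPM, at 1.32 ± 0.29 (SE; edgeR adjusted p = 0.0263). Lyz2, C1qa and Csf1r were above both day 3 libraries. Clec4f and Timd4, which define resident Kupffer cells, were low throughout, at 0.729 and 1.21 CPM and 0.0486 and 0.402 CPM in BM 3W Yap-/-. The 14 markers summed to 397 and 448 CPM in BM 3W Yap-/-, 128 and 85.0 CPM in BM 3D and 3169 and 4009 CPM in BM 3W. Without the first Yap-null library 1 was called, without the second 0, without the first BM 3D library 3, and without 1 of the fresh libraries 3 or 4. Lymphocyte and neutrophil markers were almost unread, with 2 of 14 tested and 0 called with edgeR (0 at an unadjusted p under 0.05, and 0 with DESeq2). Cholangiocyte and progenitor markers had 0 higher and 2 lower of 17, and Krt7, Krt19 and Sox9, keratins and a factor of bile duct cells, were not called, at 1.95 (edgeR adjusted p = 0.148), -2.82 (edgeR adjusted p = 0.184) and -0.16 (edgeR adjusted p = 0.888). Spp1, osteopontin, had 75.2 and 67.5 CPM against 106 and 525 CPM in BM 3D and 4337 and 5037 CPM in BM 3W. Afp, the fetal serum protein, had 247 and 257 CPM against 14.5 and 127 CPM, at 1.83 (edgeR adjusted p = 0.172).

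**Figure D5:**
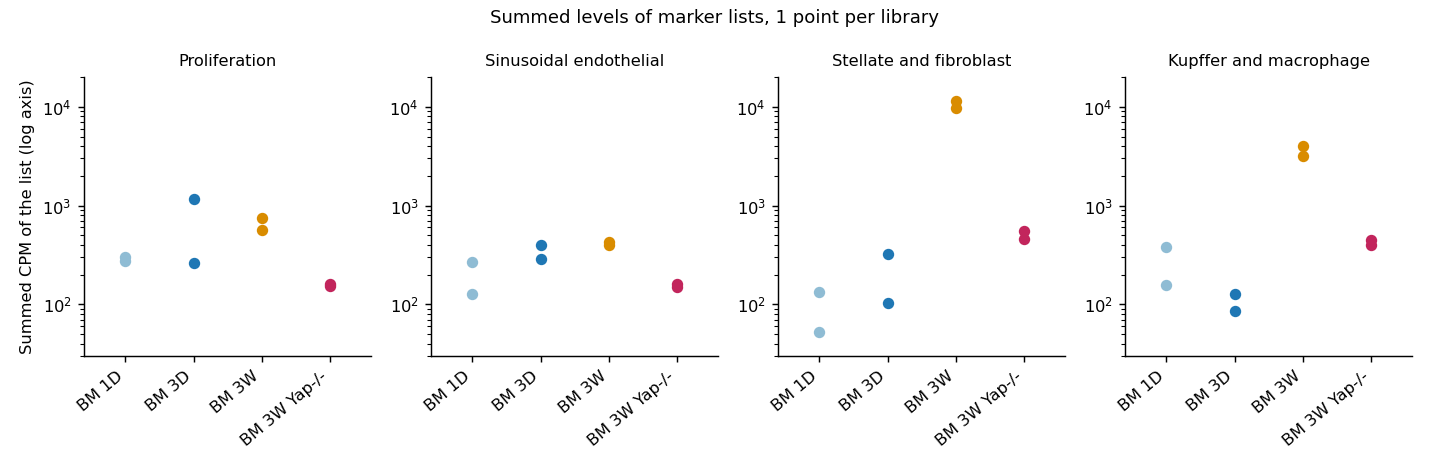
Summed TMM-scaled CPM of 4 marker lists on a log axis, 1 point per library, in BM 1D, BM 3D, BM 3W and BM 3W Yap-/- (x axis). The proliferation sum is lowest in BM 3W Yap-/-, the endothelial sum lies below both BM 3D libraries, and the stellate and macrophage sums lie above both BM 3D libraries and far below both BM 3W libraries.

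Several of the largest rises were genes little read at day 3. Dlk1, a fetal and progenitor cell surface protein, had 20.6 and 25.8 CPM and 0 counts in both BM 3D libraries, at least 173-fold higher. In BM 3W it had 4.97 and 0.868 CPM and was not called against the Yap-null cells, at 2.99 (edgeR adjusted p = 0.0765). Wisp2, a secreted protein of the Ctgf family, had 14.8 and 25.1 CPM, at least 148-fold higher than the 0 counts of BM 3D, and 92.0 and 154 CPM in BM 3W. Col11a1, a fibrillar collagen, had 13.3 and 9.5 CPM against 0.0405 and 0 CPM, with a ratio of 514 (95% counting interval 91.8 to 20339), and 285 and 242 CPM in BM 3W. Pamr1 and Lmod1 likewise lay between day 3 and week 3 of the wild-type cells, Lmod1, a smooth muscle actin nucleator, at 13.2 and 7.09 CPM against 0.243 and 0.0985 CPM and 38.3 and 23.6 CPM. Itga8, an integrin of mesenchymal cells, had 25.9 and 15.1 CPM against 0.486 and 0.148 CPM in BM 3D and 20.9 and 11.1 CPM in BM 3W, at 5.95 ± 0.64 (SE; edgeR adjusted p = 0.00137) and 0.36 ± 0.49 (SE; edgeR adjusted p = 0.597). Trpv4, a calcium channel opened by osmotic and mechanical stimuli, had 9.04 and 12.6 CPM against 0.122 and 0.0985 CPM, at 6.53 ± 0.69 (SE; edgeR adjusted p = 0.00129).

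The naming rule for genes outside both wild-type BM states gave 10 genes, the largest differences called against BM 3D and BM 3W in the same direction. Higher than both were Sult2a1, Sult2a2, Cyp2b9, Actn3 and Pilra. Actn3, the alpha-actinin of fast muscle fibres, had 34.8 and 36.8 CPM against 0.284 and 0.0492 CPM in BM 3D and 0.857 and 0.210 CPM in BM 3W, at 7.64 ± 0.93 (SE; edgeR adjusted p = 0.00605) and 6.07 ± 0.83 (SE; edgeR adjusted p = 0.00130). Pilra, an inhibitory receptor of myeloid cells, had 71.8 and 58.5 CPM against 0.851 and 1.33 CPM and 20.6 and 25.8 CPM, at 5.90 ± 0.46 (SE; edgeR adjusted p = 2.22e-04) and 1.49 ± 0.37 (SE; edgeR adjusted p = 0.0119). Lower than both were Adgrf5, Kdr, Ptprb, Angpt2 and Igf1. Angpt2, a ligand of the endothelial receptor TIE2, had 0.194 and 0.453 CPM against 33.2 and 28.2 CPM and 7.82 and 3.89 CPM, at -6.55 ± 1.32 (SE; edgeR adjusted p = 0.0211). Ptprb, an endothelial phosphatase, had 0.0972 and 0.101 CPM against 5.14 and 12.3 CPM, at -6.37 (edgeR adjusted p = 0.0159). Psg22, a pregnancy-specific glycoprotein that was among the 12 largest falls, had 0.0486 and 0 CPM against 10.2 and 12.3 CPM in BM 3D, a BM 1D mean of 36.6 CPM, and 0.240 and 0.180 CPM in BM 3W.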

How the data were processed

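Poly(A) RNA was sequenced from 14 libraries, 2 per group. The authors deposited raw counts per gene and FPKM values. Tools named in the submitters' processing notes are HISAT2, HTSeq, Cufflinks, Trimmomatic and DESeq, with the GRCm38.p6 build. Strand use in counting is not stated. The counts were tested with edgeR 4.0.16 (filterByExpr, TMM, quasi-likelihood F-test, Benjamini-Hochberg adjustment over 14100 genes, called under 0.05) in 1 fit of all 14 libraries without a replicate block. Depth ran from 15501005 to 21220365 counts, and 2 libraries per group limit precision. Intervals of ratios cover counting error only. The deposited FPKM values were tested as log2(FPKM + 1) with limma 3.58.1, and DESeq2 1.42.0 was an alternative. Scripts were tested on simulated data. The members and gene lists were chosen with earlier results of these data known. Genes were named by rule: a panel, the 12 largest rises and falls with at least 10 CPM and no overlap, up to 5 list members of smallest p, defining markers, members with the narrowest intervals inside 2-fold, and the 10 largest differences outside both BM states. Cyp2a4, Mup1, Mup3, Plet1 and the Y-linked genes were named after their values were seen.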

Additional observations from a re-analysis of the deposited data

Results flagged for a closer look

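The freshly isolated Yap-/- libraries, which no comparison of the report uses, held signal for both Sult2a genes named above, while fresh wild-type libraries were at or under 3 counts. Sult2a1 had 186 and 213 CPM in FH Yap-/- (mean 199.7) and 0 counts in both FH libraries, at least 839-fold higher. Sult2a2 had 203 and 227 CPM (mean 215) and 0.0795 and 0 CPM in FH, with a ratio of 5403 (95% counting interval 969 to 213429). Y-linked genes were read in FH and not in FH Yap-/-, at 1 count in all, and the part of sex in this difference was not tested. With 2 libraries a group, no test for a library far from the others was possible within a group.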

How the results depend on the processing

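The count of genes called against BM 3D (927) was 1984 with DESeq2, 1568 with LBDXL 3W left out (chosen after seeing the data), 1707 and 1822 with limma on log2(FPKM + 0.1) and log2(FPKM + 1), 1480 scaled by total counts and 120 when the change had to exceed 2-fold (glmTreat). The FPKM calls split into 457 higher and 1250 lower, and 494 and 1328. Leaving out 1 library gave 53 to 1517 genes against BM 3D, 1785 to 4491 against BM 1D, 1938 to 5165 against BM 3W and 3336 to 5955 against FH, and 1664 to 4067 for BM 3W against BM 3D. Genes inside 2-fold of BM 3D (4589) were 2907 in a fit of the 2 groups alone and 2811 to 4966 without 1 library. Calls over all lists (96) were 177 with DESeq2, 155 without LBDXL 3W, 148 on log2(FPKM + 1), 19 with glmTreat and 8 to 154 without 1 library. The causes of these shifts were not tested. BM 3D was the most frequent nearest state in each of 20 settings, with 4084 to 5300 genes.

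The replicate number as a block gave 1168 calls against BM 3D, 903 of them among the 927. It took the cholangiocyte list from 2 lower to 0, hepatocyte factors from 0 called to 2 higher, p53 targets from 0 to 1 higher and 1 lower, and matrix genes from 0 to 2 lower. Same-numbered libraries of BM 3D and BM 3W Yap-/- had deviations correlated at 0.136 across genes (-0.02 to 0.461 over all pairs of groups), and 2 pairs do not show that the numbers pair the samples. Of 78 genes named with values that were called against BM 3D, 14 stayed called in all 24 alternatives, 23 lost the call in 1 or 2, 41 in 3 or more, and 0 changed direction. Without the second Yap-null library 63 of them were not called.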

Other observations

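Calls in 3 stress and signalling lists are to be read against the 6.57% of all genes called against day 3. Among 18 genes of the unfolded protein response and the integrated stress response 0 rose and 2 fell, both amino acid synthesis genes. Asns, asparagine synthetase, had 28.8 and 30.9 CPM against 80.9 and 66.9 CPM in BM 3D, at -1.31 ± 0.31 (SE; edgeR adjusted p = 0.0356), and Psat1, of serine synthesis, had 18.1 and 23.0 CPM against 178 and 89.6 CPM, at -2.70 ± 0.69 (SE; edgeR adjusted p = 0.0445). Of 17 AP-1 and early response genes 1 rose and 3 fell. Dusp1, a phosphatase of MAP kinases, had 36.8 and 45.4 CPM against 169.7 and 119 CPM, at -1.82 ± 0.33 (SE; edgeR adjusted p = 0.0153), and Myc had 38.2 and 32.4 CPM against 134 and 78.7 CPM, at -1.59 ± 0.36 (SE; edgeR adjusted p = 0.0292). Jun was inside 2-fold, at 0.14 (95% interval -0.25 to 0.54). Of 15 NRF2 targets 2 rose and 1 fell. G6pdx, which feeds the pentose phosphate pathway, had 85.0 and 68.6 CPM against 13.2 and 15.9 CPM, at 2.40 ± 0.26 (SE; edgeR adjusted p = 0.00137), and Hmox1, heme oxygenase, had 25.5 and 29.4 CPM against 100.1 and 85.9 CPM, at -1.76 ± 0.44 (SE; edgeR adjusted p = 0.0415).

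With edgeR 0 of 16 p53 targets, 0 of 19 interferon response genes and 0 of 18 chemokine and NF-kB target genes were called against BM 3D, with 3, 4 and 5 at an unadjusted p under 0.05 and 1, 1 and 3 called by DESeq2. Of the p53 targets 6 were inside 2-fold, among them Mdm2, the ubiquitin ligase of p53, at -0.28 (95% interval -0.75 to 0.19). In the circadian list 1 higher and 0 lower of 17 were called, Hlf at 1.48 (edgeR adjusted p = 0.0407). Plet1, a surface protein found after its values were seen, had 107 and 79.2 CPM in BM 3W Yap-/-, 5.67 and 7.29 CPM in BM 3D and 2.02 and 3.26 CPM in BM 3W, at 3.85 ± 0.44 (SE; edgeR adjusted p = 0.00192) and 5.14 ± 0.47 (SE; edgeR adjusted p = 1.28e-04).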
